A study of Mus musculus with 12 samples.

Results

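A set of 9 genes of oxidant and arginine chemistry were followed here through 3 mouse cell lines, namely the NADPH oxidase genes Cybb, Cyba, Ncf1, Ncf4, Rac2, Nox1 and Nox4, the inducible nitric oxide synthase Nos2 and the arginase Arg1. They were listed by name, with earlier results of these data known. They make up 9 of the 25128 genes and unnamed targets measured, with 27 of the 72000 probes, 3 to a gene. The lines were BV2 (an immortalized mouse microglial line), N18 (a mouse neuroblastoma line) and AtT20 (a line from a mouse pituitary tumour), each grown as 4 plates without treatment in the same serum-containing medium, and RNA of each plate was hybridised in Cy3 to 1 array of 60-base probes. Each line is a single immortalized line and not a tissue, and per the study's methods the BV2 cells were kept in conditions meant to hold them at rest. The plates were grown and extracted separately, so the p-values below measure the spread between plates of 1 culture and not between animals. Which plates shared a slide is not given in the sources used here, so slide could not be fitted and whether it coincides with line is unknown.

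Phagocytes make superoxide with an oxidase whose catalytic core sits in the membrane and which stays idle until cytosolic subunits and a Rac GTPase dock onto it. Microglia and macrophages are known for this burst and, when activated by interferon and microbial products, for nitric oxide made from arginine by Nos2. Arginase consumes the same arginine and, in mouse macrophages, is a familiar marker of the alternative, interleukin-driven state. Nox1 and Nox4 are catalytic relatives of Cybb best known from colon epithelium and from kidney and vessel wall.

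BV2 cells carried message for the whole set of phagocyte oxidase genes examined and for Nos2, and none above background for Arg1. A gene's level is given below as log2 over the mean of 10 seminal proteins on the same plate, genes not thought to be expressed in such lines, and it passed the threshold of expression when its mean over the 4 plates lay more than 2 SD of those proteins above them. That threshold was 0.56 ± 0.15 (SD, n = 4 plates) on the log2 scale for BV2, 0.74 ± 0.10 for N18 and 0.37 ± 0.11 for the plates labelled AtT20. In BV2, 6 of the 9 genes passed, namely Cybb, Cyba, Ncf1, Ncf4, Rac2 and Nos2, where 53.3% of all genes tested passed. In N18, 3 of the 9 passed (Ncf1, Ncf4 and Nos2) against 55.4% of all genes. On the plates labelled AtT20, 4 of the 9 passed (Cyba, Ncf1, Ncf4 and Nos2) against 35.0% of all genes. Nox1, Nox4 and Arg1 passed in none of the lines. The BV2 set of 6 was the same under all 8 other definitions of the threshold and with any single plate left out, while the calls of Nos2 and Ncf1 outside BV2 were lost under some of them.

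The lines were checked against marker genes before the 9 genes were compared. In BV2, 10 of 13 measured microglia and macrophage markers passed the threshold, Aif1, Cx3cr1 and P2ry12 being the exceptions. In N18 3 passed (Itgam, Tyrobp and Trem2) and on the plates labelled AtT20 2 (Trem2 and Tmem119). Over the seminal proteins Trem2 stood at 1.52 in N18 and 1.23 in BV2, while Itgam and Tyrobp were higher in BV2. The summed level of the 13 ran from 33.6 to 40.2 over the BV2 plates, against 4.86 to 6.04 in N18 and 0.44 to 1.91 on the plates labelled AtT20. Of 10 sympathetic neuroblastoma markers, 9 passed in N18, 6 on the plates labelled AtT20 (Hand2, Th, Mycn, Gata3, Nefl and Stmn2) and 4 in BV2 (Hand2, Th, Dbh and Stmn2), with summed levels of 23.4 to 26.8, 5.99 to 11.96 and 3.28 to 4.64. Of 6 corticotroph markers, 1 passed on the plates labelled AtT20 (Pitx1), 2 in BV2 (Pomc and Tbx19) and 3 in N18 (Tbx19, Crhr1 and Pitx1), with summed levels of 0.38 to 1.22, 1.56 to 1.69 and 4.80 to 5.54. Since the corticotroph hormone gene Pomc did not pass on the plates labelled AtT20, they are called by their label throughout. Their arrays also stood apart, with median log2 intensities of 10.85 to 11.50 and interquartile ranges of 0.38 to 0.78, against 9.90 to 10.28 and 1.28 to 1.73 for BV2 and 10.10 to 10.54 and 1.91 to 2.21 for N18. The direction of several differences from those plates depended on the scale, and values on the other scales are given where it did. The cause of those changes of sign was not tested. Some markers of further cell types passed in BV2 too, among them 2 of 2 T cell genes (Cd3e and Cd3d), with a summed level of 1.38 to 1.65 against 0.58 to 1.06 in N18 and -0.26 to 0.085 on the plates labelled AtT20, and 3 of 4 neutrophil genes (Mpo, S100a8 and S100a9), with 3.38 to 4.23 against 1.57 to 2.32 and 0.24 to 1.39. Of 4 fibroblast genes 2 passed in BV2 (Dcn and Pdgfra), with 1.59 to 2.93 against 5.06 to 6.43 and 1.52 to 4.16, and neither B cell gene did. Their part in the results was not tested. The arrays measured whole cultures, in which fewer cells of a kind and less RNA per cell cannot be told apart.

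**Figure D1:**
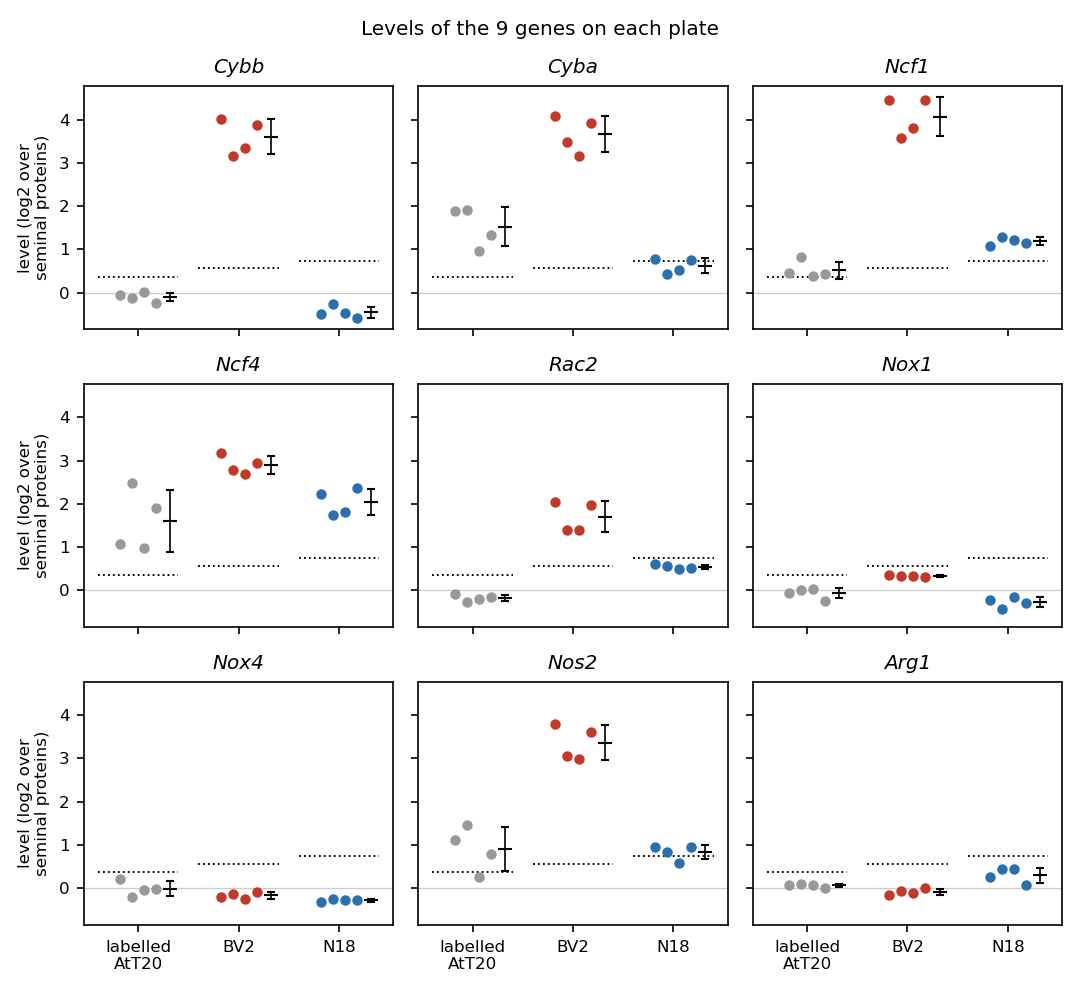
Level of each gene on each of the 12 plates (y axis, log2 over the seminal proteins), with the mean and SD of the 4 plates at the right of each group and the threshold of each line as a dotted line. The 4 BV2 plates lie above every other plate for Cybb, Cyba, Ncf1, Ncf4, Rac2, Nos2 and, below the threshold, Nox1.

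Cybb encodes the flavocytochrome subunit that carries electrons across the membrane and is the catalytic heart of the phagocyte oxidase. Its levels on BV2 plates 1 to 4 were 4.01, 3.16, 3.36 and 3.89, on N18 plates -0.49, -0.27, -0.47 and -0.60, and on the plates labelled AtT20 -0.061, -0.12, 0.0078 and -0.23 (log2 over the seminal proteins). Every BV2 plate was far above every other plate, and no plate of the other lines reached the threshold. For tests between lines the arrays were quantile-normalized and fitted with limma over all 25128 genes and targets. On that scale Cybb was higher in BV2 than in N18 by 3.82 ± 0.14 log2 units (SE, n = 4 plates per line, adjusted p = 2.41e-12) and higher than on the plates labelled AtT20 by 3.30 ± 0.14 (adjusted p = 7.58e-12). Since Cybb was at background in the dimmer lines, the folds are bounds, at least 7.2-fold over N18 and at least 3.6-fold over the plates labelled AtT20. All 3 Cybb probes gave the same direction, with BV2 above N18 by 2.45 to 4.51.

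Cyba encodes the small membrane partner that stabilizes Cybb and offers the docking site for the cytosolic subunits. On BV2 plates 1 to 4 its levels were 4.09, 3.49, 3.16 and 3.92, on N18 plates 0.78, 0.43, 0.51 and 0.75, and on the plates labelled AtT20 1.88, 1.91, 0.97 and 1.34. The 3 lines did not overlap, with BV2 highest, the plates labelled AtT20 in between and N18 lowest, where the mean of 0.62 ± 0.17 (SD) fell short of the threshold. Cyba was higher in BV2 than in N18 by 3.11 ± 0.12 (SE, adjusted p = 2.7e-12, at least 7.5-fold) and higher than on the plates labelled AtT20 by 1.00 ± 0.12 (adjusted p = 1.2e-06) on the quantile-normalized scale, or by 2.14 relative to the seminal proteins. The probes disagreed on the plates labelled AtT20. A single probe stood at 2.59 on the plates labelled AtT20, where the other probes stood at -0.16 and 0.60, and it alone put BV2 below those plates, by -0.61 ± 0.16 (SE), while the other probes put BV2 higher by 3.88 and 1.82.

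Promoter windows are shown for Cybb, Cyba and Ncf1, which were higher in BV2 than in both other lines, and for Nox1, a relative that stayed below the threshold in every line. RefSeq windows were at hand for 5 of the 9 genes (Cybb, Cyba, Ncf1, Nox1 and Nox4), and the stretch from 230 bases before to 20 bases after the annotated start is printed 5′ to 3′ on the gene's own strand for 4 of them. Coordinates are those of GRCm38.p6, chrX:9469305-9469554 for Cybb, chr8:122432921-122433170 for Cyba, chr5:134229606-134229855 for Ncf1 and chrX:134111835-134112084 for Nox1, all on the minus strand. Capitals mark matches to 4 letter patterns searched on both strands, namely GAGGAA (a core bound by ETS factors such as the myeloid factor Spi1), TTCNNNGAA (the gamma-activated site of STAT factors), TATAAA and GGGANNTTC (part of a kappaB site), of which none was found overlapping another in these stretches.
Cybb: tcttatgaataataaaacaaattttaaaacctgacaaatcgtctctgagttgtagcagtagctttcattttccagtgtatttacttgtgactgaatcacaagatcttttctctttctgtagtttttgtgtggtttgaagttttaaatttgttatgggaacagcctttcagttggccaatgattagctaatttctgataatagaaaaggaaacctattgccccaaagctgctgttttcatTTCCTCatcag
Cyba: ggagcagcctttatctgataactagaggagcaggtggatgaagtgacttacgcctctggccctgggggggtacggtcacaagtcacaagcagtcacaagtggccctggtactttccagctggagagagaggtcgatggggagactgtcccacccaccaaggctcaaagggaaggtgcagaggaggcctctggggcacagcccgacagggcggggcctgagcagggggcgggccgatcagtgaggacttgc
Ncf1: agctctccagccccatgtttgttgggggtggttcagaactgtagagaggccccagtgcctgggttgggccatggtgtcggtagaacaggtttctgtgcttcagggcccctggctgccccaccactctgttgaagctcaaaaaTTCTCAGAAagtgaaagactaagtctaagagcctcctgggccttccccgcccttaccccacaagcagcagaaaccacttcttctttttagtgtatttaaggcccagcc
Nox1: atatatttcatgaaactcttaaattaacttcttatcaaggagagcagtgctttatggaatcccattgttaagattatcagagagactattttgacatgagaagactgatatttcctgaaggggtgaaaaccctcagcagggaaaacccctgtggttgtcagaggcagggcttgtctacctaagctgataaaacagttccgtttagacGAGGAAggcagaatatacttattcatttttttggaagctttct
Cybb held GAGGAA on the opposite strand at bases 10 to 15 after the start, read here as its complement, and Nox1 held it on its own strand at -23 to -18. Among 32851 windows of 300 bases, 28.3% held GAGGAA, so its presence sets neither gene apart. Ncf1 held TTCNNNGAA at -88 to -80, a pattern found in 8.30% of windows, and Cyba held none of the 4 in its window. Nox4, which is not printed, held TTCNNNGAA at -222 to -214 and GGGANNTTC, found in 3.94% of windows, on its opposite strand at -185 to -177. These matches are descriptions of the letters and show no binding.

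Ncf1 encodes the cytosolic organizer subunit that, once phosphorylated, bridges the complex to Cyba. Its levels on BV2 plates 1 to 4 were 4.45, 3.57, 3.80 and 4.46, on N18 plates 1.09, 1.29, 1.23 and 1.15, and on the plates labelled AtT20 0.44, 0.81, 0.39 and 0.43. BV2 again lay clear of the rest, and N18 was above its threshold on all 4 plates. Ncf1 was higher in BV2 than in N18 by 3.23 ± 0.12 (SE, adjusted p = 2.72e-12), a fold of 9.39 on the quantile-normalized scale, or by 2.88 relative to the seminal proteins. It was higher than on the plates labelled AtT20 by 2.50 ± 0.12 (adjusted p = 3.21e-11). All 3 probes placed BV2 above N18, by 2.70 to 3.42, though 1 of them stood at 0.057 in N18, below the threshold there. The order of the lower lines depended on the scale, since N18 lay below the plates labelled AtT20 by -0.74 after quantile normalization (adjusted p = 4.81e-05) and by -0.72 on the deposited values, and above them by 0.67 relative to the seminal proteins (adjusted p = 0.0096).

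Ncf4 encodes the cytosolic subunit that binds phosphatidylinositol 3-phosphate on the phagosome. The levels of Ncf4 on BV2 plates 1 to 4 were 3.18, 2.79, 2.70 and 2.94, on N18 plates 2.24, 1.74, 1.83 and 2.36, and on the plates labelled AtT20 1.07, 2.48, 0.98 and 1.91. It passed the threshold in all 3 lines, and N18 and the plates labelled AtT20 overlapped. Ncf4 was higher in BV2 than in N18 by 1.41 ± 0.20 (SE, adjusted p = 3.25e-05), a fold of 2.66, and by 0.86 (adjusted p = 0.0168) relative to the seminal proteins, but the probes disagreed. They put BV2 above N18 by 1.86 ± 0.27 (SE, adjusted p = 4.2e-05), 0.92 ± 0.20 (adjusted p = 0.00246) and 0.085 ± 0.16 (adjusted p = 0.764), and taking their median instead gave a difference of 0.33 (adjusted p = 0.104). Against the plates labelled AtT20 no difference was called after quantile normalization, at 0.15 (95% interval -0.28 to 0.59, adjusted p = 0.51), whereas relative to the seminal proteins BV2 was higher by 1.29 (adjusted p = 0.000533) and on the deposited values it was lower by -0.067.

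Rac2 is the Rac GTPase of blood cells that switches the assembled oxidase on. Its levels on BV2 plates 1 to 4 were 2.04, 1.39, 1.39 and 1.98, on N18 plates 0.60, 0.57, 0.49 and 0.52, and on the plates labelled AtT20 -0.088, -0.27, -0.19 and -0.15. It passed the threshold in BV2 alone of the 3 lines, though 1 of its 3 probes stood at 1.16 in N18, above the threshold there. Rac2 was higher in BV2 than in N18 by 1.23 ± 0.094 (SE, adjusted p = 1.75e-08, at least 1.9-fold) and higher than on the plates labelled AtT20 by 1.66 ± 0.094 (adjusted p = 1.57e-10), and its 3 probes put BV2 above N18 by 1.20 to 1.26. No bound above 1-fold could be set for the latter across the 3 scales, on which the difference ran from 0.51 on the deposited values to 1.88 relative to the seminal proteins.

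Nox1 and Nox4, the non-phagocyte catalytic subunits, gave no message above the threshold in any line. For Nox1 the levels on BV2 plates 1 to 4 were 0.35, 0.34, 0.34 and 0.31, on N18 plates -0.23, -0.42, -0.15 and -0.30, and on the plates labelled AtT20 -0.067, -0.0016, 0.024 and -0.23. On this scale BV2 lay above the other lines on every plate but below its threshold. Against the plates labelled AtT20 it stood 0.11 higher on the quantile-normalized scale (adjusted p = 0.478) and 0.41 higher over the seminal proteins, and on the deposited values the difference was -0.96. The difference from N18 was called, at 0.58 ± 0.14 (SE, adjusted p = 0.00383), resting on 1 of 3 probes. That probe stood at 0.67 in BV2, by itself above the threshold there. For Nox4 the levels were -0.19, -0.13, -0.26 and -0.079 in BV2, -0.33, -0.26, -0.26 and -0.28 in N18, and 0.21, -0.21, -0.043 and -0.017 on the plates labelled AtT20. These values sat around the seminal proteins, none of the 3 Nox4 probes passed the threshold in any line, and BV2 and N18 differed by 0.12 (95% interval -0.18 to 0.42, adjusted p = 0.541). A level below the threshold is a limit of detection on these arrays and does not show that the message is absent.

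Nos2, which makes nitric oxide from arginine without need for a calcium rise, was among the messages well above background in BV2. The Nos2 levels on BV2 plates 1 to 4 were 3.80, 3.06, 2.99 and 3.62, on N18 plates 0.94, 0.84, 0.59 and 0.96, and on the plates labelled AtT20 1.11, 1.46, 0.25 and 0.79. The BV2 plates stood apart, and the other lines overlapped each other. Nos2 was higher in BV2 than in N18 by 2.69 ± 0.13 (SE, adjusted p = 7.07e-11) and higher than on the plates labelled AtT20 by 1.40 ± 0.13 (adjusted p = 8.27e-08), or by 2.47 relative to the seminal proteins. No fold is given, since in both of the lower lines the gene passed the threshold through 1 of its 3 probes alone, which stood at 1.71 on the plates labelled AtT20 and at 1.54 in N18. The remaining probes stood at -0.027 and 0.49 in N18 and at 0.27 and -0.15 on the plates labelled AtT20, and they put BV2 above N18 by 3.70 and 2.84, against 1.50 for the probe that read in every line. They put BV2 above the plates labelled AtT20 by 2.66 and 3.17. The probe that read in every line gave -0.31 ± 0.22 (SE, adjusted p = 0.242) there, with BV2 lower and no call.

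Arg1, the arginase of liver and of alternatively activated macrophages, was not above the threshold anywhere. Its levels on BV2 plates 1 to 4 were -0.16, -0.054, -0.10 and 0.0050, on N18 plates 0.27, 0.43, 0.44 and 0.073, and on the plates labelled AtT20 0.085, 0.086, 0.084 and -0.00042. Every BV2 plate lay below every N18 plate, and 1 of the 3 probes stood at 0.74 in N18, barely above the threshold there. BV2 and N18 differed by -0.21 (95% interval -0.44 to 0.029, adjusted p = 0.154) after quantile normalization and by -0.38 (adjusted p = 0.000746) relative to the seminal proteins, in both cases with BV2 lower and with both lines below the threshold. Nos2 and Arg1, which compete for arginine, thus stood on opposite sides of the threshold in BV2.

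**Figure D2:**
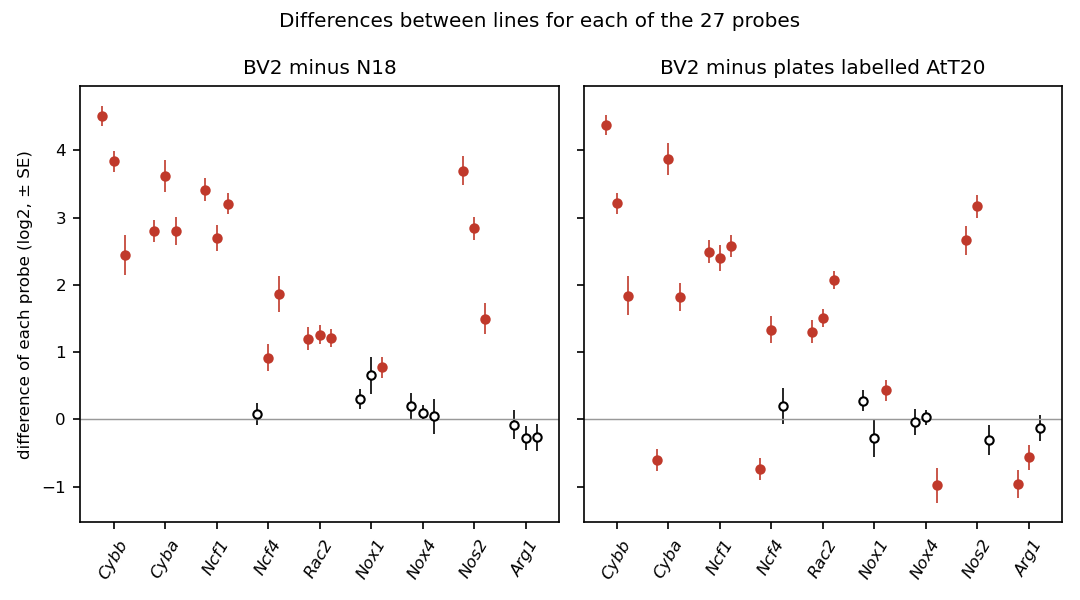
Difference between lines for each of the 27 probes, 3 to a gene (y axis, log2 on the quantile-normalized scale, bars are SE), with BV2 minus N18 on the left and BV2 minus the plates labelled AtT20 on the right, and filled points for adjusted p under 0.05. All 3 probes of Cybb, Cyba, Ncf1, Rac2 and Nos2 are filled and above 0 on the left, while probes of Cyba, Ncf4 and Nos2 lie on both sides of 0 on the right.

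Counted together, 7 of the 9 genes were called higher in BV2 than in N18 and none lower, where 21.9% of all genes tested were called higher in BV2 and 19.0% higher in N18. Nox4 and Arg1 were the exceptions, and relative to the seminal proteins Arg1 was called lower in BV2, by -0.38 (adjusted p = 0.000746). With a difference of at least 1 also required, 6 were higher (all but Nox1 of the 7), against 4.35% of all genes, and none was lower, against 5.48%. The median difference of all genes was 0.06 on this scale, -0.18 relative to the seminal proteins and -0.15 on the deposited values, and the 7 calls kept their direction on each. Over the probes, 18 of 27 were called higher in BV2 and 0 in N18, against 13.2% and 14.5% of the 72000 probes. The genes were chosen as a family known from phagocytes, and these shares of all genes describe the background, not a test.

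Against the plates labelled AtT20, 5 of the 9 genes were called higher in BV2 (Cybb, Cyba, Ncf1, Rac2 and Nos2) and 2 lower (Nox4 and Arg1) after quantile normalization, while relative to the seminal proteins 7 were higher and 0 lower and on the deposited values 5 were higher and 3 lower. Of all genes tested, 26.6% were called higher in BV2 and 47.0% higher on the plates labelled AtT20 after quantile normalization. Shares of all genes on the other scales were not counted, so the counts there have no background beside them. The median difference of all genes moved with the scale, from -0.23 after quantile normalization to 0.28 relative to the seminal proteins and -1.08 on the deposited values. Cybb, Cyba, Ncf1, Rac2 and Nos2, taken over their probes, kept BV2 higher on all 3 scales, though single probes of Cyba and Nos2 lay on both sides of 0. The lower calls of Nox4, by -0.46 (adjusted p = 0.00732), and of Arg1, by -0.60 (adjusted p = 0.000155), were between values below the threshold and were not called relative to the seminal proteins, at -0.15 and -0.14.

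Between N18 and the plates labelled AtT20 the sign depended on the scale for 4 of the 9 genes. The all-gene median of N18 minus those plates changed sign too. It was -0.25 on the quantile-normalized scale, 0.54 over the seminal proteins and -0.85 as deposited. Whether the signs and counts of the 9 genes follow that shift was not tested. After quantile normalization all 9 genes were called, Rac2 higher in N18 and the other 8 lower, against 27.8% of all genes called higher in N18 and 48.6% called higher on the plates labelled AtT20, while relative to the seminal proteins 3 were higher and 3 lower and on the deposited values 0 higher and 9 lower. All-gene shares were counted only on the quantile-normalized scale, so the counts on the other scales stand without a background. Cybb, Cyba, Nox1, Nox4 and Nos2 were lower in N18 on all 3 scales. Of these, Cyba, Nox1 and Nox4 were called on each, with Nox1 and Nox4 below the threshold in both lines. Cyba differed by -2.11 ± 0.12 (SE, adjusted p = 1.36e-10) after quantile normalization and by -0.91 relative to the seminal proteins, at least 1.7-fold lower in N18. Its probes gave -3.41 (adjusted p = 1.9e-11), -0.98 (adjusted p = 0.000491) and 0.26 (adjusted p = 0.355). Rac2 differed by 0.43 on the quantile-normalized scale, by 0.72 over the seminal proteins and by -0.67 as deposited. Ncf4 differed by -1.26, 0.43 and -0.96 on those scales, and Arg1 by -0.39, 0.24 and -1.15. All 3 comparisons share plates, so they are not independent of one another.

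**Figure D3:**
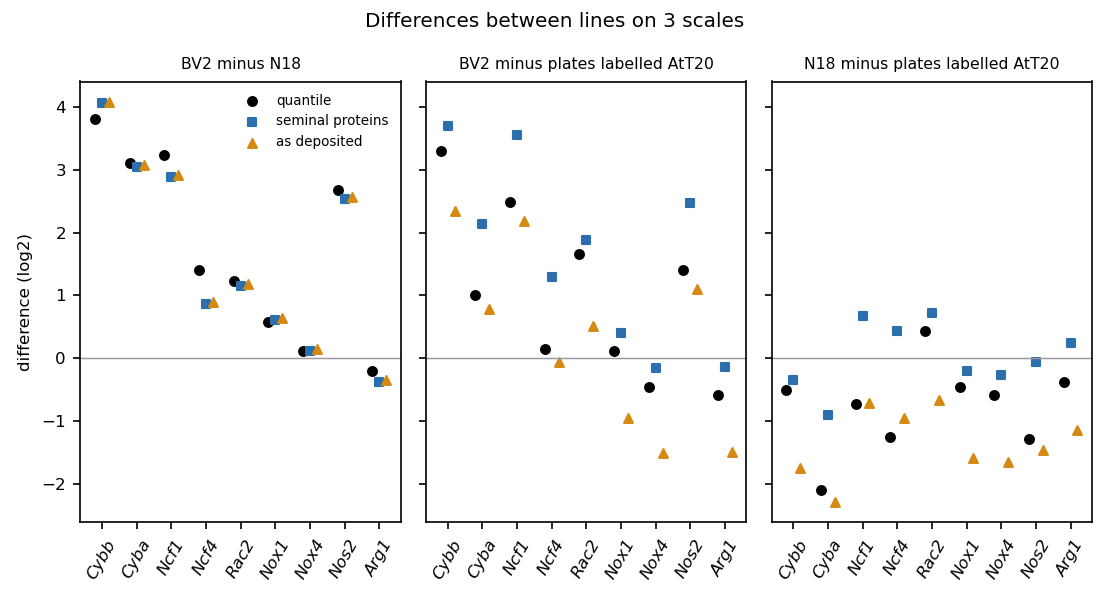
Difference between lines of each gene (y axis, log2) on the quantile-normalized scale, relative to the seminal proteins and as deposited, in 3 panels for the 3 pairs of lines. The 3 symbols fall together for BV2 minus N18 and spread apart in both comparisons with the plates labelled AtT20, where Ncf4 and Nox1 (middle panel) and Ncf1, Ncf4, Rac2 and Arg1 (right panel) change sign between scales.

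Over the 12 arrays the genes whose quantile-normalized values ran most like Cybb were Stap1 (Pearson r = 0.998), Lilr4b (0.998) and Gvin1 (0.996) among 12171 named genes that passed the threshold in some line. Among the 9 genes, Ncf1 ran closest to Cybb (r = 0.994), then Rac2 (0.914), Nos2 (0.907) and Cyba (0.817), with Ncf4 at 0.597, Nox1 at 0.628, Nox4 at -0.16 and Arg1 at -0.55. For Rac2 the closest were Irak2 (0.996), Soat1 (0.994) and Fxyd5 (0.993). The 12 points fall into 3 lines of 4 plates, so these values describe the contrast of lines and carry no test.

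Other subunits and regulators of NADPH oxidases were called in both directions. Of 21 measured of a list of 25, 10 were called higher in BV2 than in N18 and 4 lower, against 21.9% and 19.0% of all genes. Their median difference was 0.26, where the median of all genes was 0.06. Shares of all genes on the other 2 scales were not counted for any of the 4 lists. There the split was 4 and 4 on the deposited values and 4 and 6 relative to the seminal proteins. Those higher by at least 1 were Vav1, the exchange factor of blood cells that loads Rac (3.92 ± 0.14, SE, adjusted p = 1.41e-12, at least 10.3-fold), Arhgdib, a blood cell inhibitor that holds small GTPases in the cytosol (3.85 ± 0.15, adjusted p = 2.3e-12, at least 9.7-fold), and the leukocyte lipid kinase subunit Pik3cg (1.99 ± 0.12, adjusted p = 6.3e-10, at least 2.6-fold). The Rac exchange factor Tiam1 was lower in BV2 by -1.21 ± 0.11 (SE, adjusted p = 8.76e-08), or by -1.97 relative to the seminal proteins. Rac1, the widely expressed relative of Rac2, ran the other way, with BV2 lower than N18 by -1.02 ± 0.11 (SE, adjusted p = 8.52e-07) and both far above the threshold, at levels of 3.89 ± 0.39 (SD) and 5.41 ± 0.24. Rac1 thus passed the threshold in both lines and Rac2 in BV2 alone of the pair. On the plates labelled AtT20 Rac1 stood at a level of -0.23 ± 0.042 (SD), below the threshold there, although most cells carry its message.

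Genes of nitric oxide and arginine metabolism beside Nos2 and Arg1 were called in both directions, with more of them lower in BV2 on 2 of the 3 scales. Of 25 measured, 7 (28.0%) were called higher in BV2 than in N18 and 7 lower (median difference 0.04) after quantile normalization. Of all genes 21.9% and 19.0% were called on that scale. The splits were 3 and 10 on the deposited values and 4 and 10 relative to the seminal proteins, where the medians of all genes were -0.15 and -0.18. The synthases went to different lines, since the neuronal synthase Nos1 was lower in BV2 by -2.47 ± 0.14 (SE, adjusted p = 5.86e-10, at least 4.6-fold), with a level of 3.62 ± 0.32 (SD) in N18 and 0.28 ± 0.11, below the threshold, in BV2. The endothelial synthase Nos3 was below the threshold in every line and not called, at 0.19 (95% interval -0.028 to 0.41, adjusted p = 0.156). Arg2, the mitochondrial arginase, was not called either, at 0.28 (95% interval -0.046 to 0.61, adjusted p = 0.164), and was below the threshold in BV2 and N18, so neither arginase was detected in BV2. On the plates labelled AtT20 Arg2 did pass the threshold, at a level of 0.74 ± 0.38 (SD). Ddah1 and Ddah2, which clear the methylated arginines that inhibit the synthases, were lower in BV2 by -2.86 (adjusted p = 7.42e-11, at least 5.6-fold) and -2.28 (adjusted p = 8.76e-11, at least 4.0-fold). Pts, an enzyme of the tetrahydrobiopterin cofactor that all synthases need, was higher in BV2 by 1.22 (adjusted p = 9.93e-08), the arginine exporter subunit Slc7a7 by 1.08 (adjusted p = 4.93e-07) or 0.54 relative to the seminal proteins, and the spermine synthase Sms lower by -1.94 (adjusted p = 6.19e-10).

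Genes of defence against oxidants moved in both directions. Of 29 measured of a list of 30, 9 were called higher in BV2 than in N18 and 11 lower (median difference -0.04), against 21.9% and 19.0% of all genes, with splits of 3 and 11 on the deposited values and 4 and 14 relative to the seminal proteins. The mitochondrial and peroxisomal peroxiredoxin Prdx5 was higher in BV2 by 2.52 (adjusted p = 3.79e-09), the glutathione peroxidase Gpx1 by 1.80 (adjusted p = 2.98e-09) and the haem oxygenase Hmox1 by 1.39 (adjusted p = 1.41e-06). Relative to the seminal proteins Gpx1 was higher by 1.04 and Hmox1 by 0.78. The pentose phosphate enzyme G6pdx, a source of the NADPH that the oxidase consumes, was higher by 1.23 (adjusted p = 2.98e-06), but only by 0.49 (adjusted p = 0.15) relative to the seminal proteins. Lower in BV2 were Prdx4 of the endoplasmic reticulum by -1.80 (adjusted p = 4.96e-10), the thioredoxin reductase Txnrd1 by -1.26 (adjusted p = 1.05e-06), Gclm of glutathione synthesis by -1.19 (adjusted p = 2.14e-05), the cytosolic superoxide dismutase Sod1 by -1.06 (adjusted p = 1.37e-06) and the malic enzyme Me1 by -1.04 (adjusted p = 1.87e-06). Relative to the seminal proteins Gclm was lower by -1.88 and Me1 by -1.71, and Prdx4 was lower by -1.07 with the mean of log2 probes.

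Genes often measured beside Nos2 as signs of inflammatory activation were nearly all higher in BV2 than in N18. No stimulated plates were measured, so a state of activation and the kind of line cannot be told apart. Of 10 measured, 9 were called higher and 0 lower, against 21.9% and 19.0% of all genes, the exception being Irf1 at 0.33 (adjusted p = 0.0738). The inducible cyclooxygenase Ptgs2 was higher by 5.39 ± 0.099 (SE, adjusted p = 4.33e-15, at least 20.7-fold), the chemokines Cxcl10 and Ccl5 by 3.98 (adjusted p = 1.71e-13, at least 11.5-fold) and 2.78 (adjusted p = 3.57e-11, at least 5.2-fold), the cytokines Il1b and Il6 by 2.28 (adjusted p = 5.16e-12, at least 3.0-fold) and 1.73 (adjusted p = 7.56e-09, at least 2.4-fold), and the transcription factor subunit Nfkb1 by 2.07 (adjusted p = 9.82e-10). Of 11 genes often measured beside Arg1, 4 (36.4%) were called higher in BV2 and 1 (9.09%) lower, shares to be read against the same 21.9% and 19.0%. Those higher were the receptor and signalling genes Il4ra, Stat6 and Cebpb and the cytokine Il10, named after their values were seen, and not called were the surface and secreted markers Mrc1, Chil3, Retnla, Cd163 and Clec10a and the factor Irf4. Pparg, a nuclear receptor of fat cells and alternatively activated macrophages, was lower in BV2 by -1.24 (adjusted p = 5.47e-08, at least 1.8-fold), or by -1.98 relative to the seminal proteins. Over both groups 13 of 21 were higher and 1 lower, with splits of 12 and 1 on the deposited values and 13 and 1 relative to the seminal proteins.

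**Figure D4:**
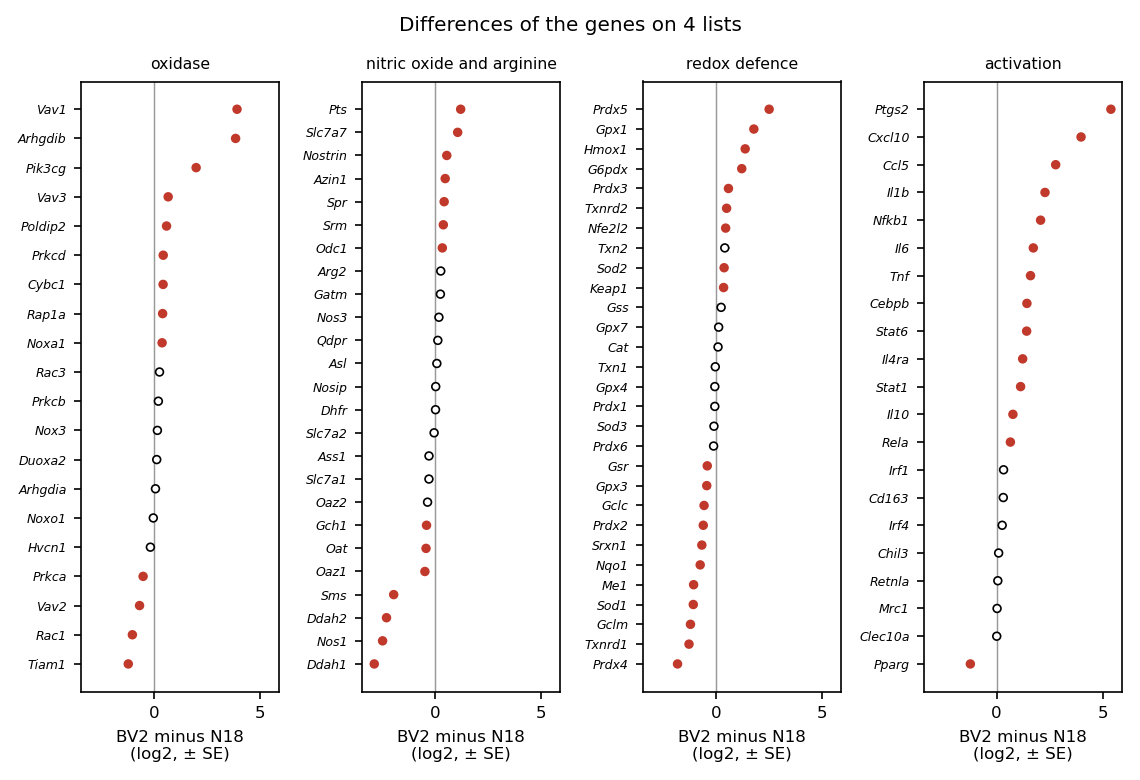
Difference between BV2 and N18 (x axis, log2 on the quantile-normalized scale, bars are SE and often smaller than the points) for the genes of 4 lists, 1 oxidase gene left out, with filled points for adjusted p under 0.05. Vav1 and Arhgdib lead the oxidase list at 3.92 and 3.85, Ptgs2 leads the activation list at 5.39, and the nitric oxide and redox lists spread to both sides of 0.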

How the data were processed

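The authors deposited 1 table of log2 Cy3 intensities for 72000 probes of a NimbleGen mouse design on 12 arrays, 4 for each line. Per the study's methods the intensities came from GenePix scans read out with NimbleScan and were put on the log2 scale. Background correction and normalization are not given in the sources used here, and since column medians differed they appear not to have been scaled to one another. Probe targets were named through RefSeq transcripts, which gave a symbol to 17780 of 25631 targets (69.4%). The other targets were tested without a name. A gene's value is the linear mean of its probes, taken per target and then over targets. Levels used the deposited values against the 10 seminal proteins and the threshold of 2 SD in the study's methods. Differences between lines come from limma 3.58.1 (eBayes with its trend option, R 4.3.3), fitted to all 12 arrays after quantile normalization at probe level, with Benjamini-Hochberg adjustment over 25128 genes and targets, called at adjusted p under 0.05, and again over the 72000 probes. A bound on a fold takes the higher of threshold and gene in the dimmer line and the smallest of the 3 scales. Compared levels are of 1 gene across lines, since probes differ in binding. The number of arrays limits the precision. Of the 4 lists, the genes called with a difference of at least 1 were named, at most 6 in each direction, with Rac1, Nos1, Nos3 and Arg2 in any case, and 1 gene of the oxidase list, counted with it, is not reported here. The members and lists were chosen with earlier results of these data known. Alternatives are given in the closing section.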

Additional observations from a re-analysis of the deposited data

Results flagged for a closer look

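Dixon's test of the highest or lowest plate within each line singled out 2 of 27 groups of 4 plates, where chance gives about 1 in 20. The level of Ncf1 on plate 2 labelled AtT20 was 0.81 (log2 over the seminal proteins), against 0.39 to 0.44 on the others of that label. The level of Arg1 on plate 4 labelled AtT20 was -0.00042, against 0.084 to 0.086 on the others, all below the threshold.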

How the results depend on the processing

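Between BV2 and N18, 189 of 195 recomputed values of the 9 genes kept direction and call over 22 other settings, 2 lost the call (Ncf4 at 0.33 and Nox1 at 0.38, both with the median of probes), 4 gained one and 0 reversed. The gained calls were of Arg1 under 3 settings, with BV2 lower, and of Nox4 under 1, with BV2 higher. Among the named differences between BV2 and N18 that were called, 5 grew by over 1.5 times with normexp background correction. They became 1.24 for Nox1, 3.04 for Pik3cg, 3.50 for Il1b and, for Pparg and Me1, -1.89 and -1.60. The counts of genes called stayed at 7 with any single plate left out, while against the plates labelled AtT20 they ran from 7 to 8 for BV2 and stayed at 9 for N18. Shares of all genes were not counted with a plate left out. With all 12 arrays, 21.9% of all genes were called higher in BV2 than in N18 and 19.0% lower. Against the plates labelled AtT20, 26.6% were called higher in BV2 and 47.0% lower, and 27.8% higher in N18 and 48.6% lower. Leaving out a plate gave 12 to 14 calls on the oxidase list, 12 to 18 on the nitric oxide list, 18 to 20 on the redox list and 14 to 16 on the activation list.

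Requiring a difference of at least 1 left 4 genes called between BV2 and the plates labelled AtT20, 3 between N18 and those plates, and 5, 6 and 9 on the oxidase, nitric oxide and redox lists. At that size 4.35% of all genes were called higher in BV2 than in N18 and 5.48% lower. Such shares were not counted for the other pairs of lines. Without normalization 8 of the oxidase list were called. Requiring 2 called probes, a rule chosen after seeing the data and with no share of all genes counted, left 4 between N18 and the plates labelled AtT20. In N18 the number of the 9 genes above the threshold fell to 1 (Ncf4) with olfactory receptors as controls and rose to 5, with Cyba and Rac2 added, without the highest seminal protein.

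Reversed values all involved the plates labelled AtT20, apart from Nos3 between BV2 and N18 (-0.0093 relative to the seminal proteins). Relative to the seminal proteins, N18 minus the plates labelled AtT20 became 0.67 for Ncf1, 0.43 for Ncf4 and 0.24 for Arg1. Without normalization Rac2 there became -0.67, and BV2 minus the plates labelled AtT20 became -0.067 for Ncf4 and -0.96 for Nox1. For Ncf4 that difference was also -0.49 with the median of probes, -0.062 with array weights and -0.077 without plate 1 labelled AtT20, and for Nox1 it was -0.028 without plate 4 and, newly called, 0.27 without plate 3. The cause was not tested.

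Plates of the same number did not deviate together (correlations of -0.11 to 0.32 over 12 pairs), so the numbers do not pair them. With the plate number as a replicate block, 7, 7 and 9 of the 9 genes were called in the 3 comparisons and 14, 14, 20 and 15 on the 4 lists. Shares of all genes were not counted with that block, so these counts have no background beside them.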
